A study of Mus musculus with 6 samples.

Results

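Of the 32285 genes in the deposited matrices, 8 genes of leukocyte entry into tissue were followed across mouse skin: Icam1, Vcam1, Sele, Selp, Ackr1, Lrg1, Selplg and Itgal. They were found by their gene symbol, and each had 1 row in every matrix. The skin was whole skin without hypodermis from untreated female mice aged 17 to 18 weeks, with the genotype label C57/BL6 in every group. The 3 groups were WT mice and mice with UP_Del, a deletion of the upstream enhancer of Il2ra (the gene of an interleukin-2 receptor chain), split into mice without alopecia (UP_Del_No_Alopecia) and with alopecia (UP_Del_Alopecia). Skin was digested with Liberase for 2 h and with trypsin for 10 min, live CD45+ cells (leukocytes) and CD45- cells (all others) were sorted, and each sort gave 1 single-cell 5' RNA library per group, 6 libraries in all. How many mice stood behind a library is not given in the sources used here, and the labels do not say whether the WT mice were littermates of the others.

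Leukocytes leave blood mainly across venules, the small vessels behind the capillaries. E-selectin (Sele) and P-selectin (Selp) on the vessel wall slow passing leukocytes by binding sugars on ligands such as PSGL-1, the product of Selplg. Firm arrest follows when leukocyte integrins bind ICAM-1 and VCAM-1, the products of Icam1 and Vcam1. The integrin LFA-1, whose alpha chain Itgal encodes, is a receptor for ICAM-1. Ackr1 encodes a receptor that carries chemokines across venular endothelium without signalling through G proteins, and Lrg1 encodes a secreted glycoprotein made by endothelium that modulates TGF-beta signalling. Sele, Selp, Icam1 and Vcam1 are classic targets of inflammatory cytokines acting through NF-kappaB.

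Each value below is a level in scaled counts (CPM): unique molecular identifiers (UMIs, 1 per captured RNA molecule) of a gene, summed over the cells of a class in a library, scaled to a sum of 1e6 UMIs over those cells. With 1 library per group no difference could be tested, and no p-value is given. The 95% intervals in parentheses are exact intervals for counting error alone, so they say nothing of the spread between mice. Values in a series of 3 are in the order wild type, no alopecia and alopecia. A member was counted as past the threshold where its levels in a pair of libraries differed by more than 1.5-fold and its UMIs in both came to at least 20. The same rule was run over all genes, since a share of members near the share of all genes is no result about the members. Counts in CD45- classes cover the 6 members other than Selplg and Itgal, here named the endothelial members. Counts in leukocyte classes cover Selplg and Itgal.

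After filtering, the CD45- libraries held 3285, 14391 and 4797 cells with median depths from 5005 to 5641 UMIs, and the CD45+ libraries held 6307, 3236 and 8846 cells with medians from 4089 to 4836. The filter on mitochondrial RNA and depth removed 26.7%, 7.56% and 30.4% of CD45- barcodes, so the no-alopecia library stood apart. Between 24 and 228 cell barcodes were shared by a pair of libraries, at most 2.58% of the smaller one. Cells were clustered without the 8 members among the variable genes, and a class name stands for cells that look like that type by marker genes. The CD45- sort gave 17, 152 and 34 venular endothelial cells, 198, 526 and 252 other blood endothelial cells and 72, 343 and 135 lymphatic endothelial cells.

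The venular class consists of the clusters in which a list of 14 venular marker genes, none of them a member, scored highest, so the level of that list describes the class and is no check of its name. The summed level was 7686, 8446 and 7707 CPM in venular cells, against 2619, 3102 and 3391 CPM in other blood endothelium and 1805, 1707 and 2030 CPM in lymphatic endothelium. Gpihbp1, a capillary gene, was at 9.28, 7.46 and 44.2 CPM in venular cells and at 664, 272 and 1007 CPM in other blood endothelium. The capillary list as a whole did not separate the classes, because its most abundant gene, Fabp4, made up 70.9%, 76.6% and 69.3% of it in the venular cells. Venular cells were 7.91% (4.67 to 12.4), 22.4% (19.3 to 25.7) and 11.9% (8.38 to 16.2) of blood endothelial cells, which is the highest share in the library without alopecia. When cells were classed by their own marker UMIs the shares were 30.8%, 50.9% and 27.1%, so that the order of wild type and alopecia turned.

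The promoters of Icam1, Sele and Selp are shown, the 3 members whose window was found and lay outside the annotated gene. The windows of Ackr1 and Lrg1 reached into the gene body in GENCODE vM21. No RefSeq window was found for Vcam1, Selplg and Itgal. The 250 bases before the RefSeq start are given on the gene's strand in build GRCm38.p6, for Icam1 at chr9:21015690-21015939, for Sele at chr1:164047984-164048233 and for Selp at chr1:164115014-164115263. All 3 genes lie on the plus strand, and in GENCODE vM21 the gene bodies run from 21015985 to 21028817 for Icam1, 164048234 to 164057677 for Sele and 164115264 to 164150026 for Selp. Of the other members, Vcam1 lies on chromosome 3 (116109949 to 116129688, minus strand), Ackr1 on chromosome 1 (173331886 to 173333750, minus), Lrg1 on chromosome 17 (56119678 to 56122001, minus), Selplg on chromosome 5 (113818536 to 113832644, minus) and Itgal on chromosome 7 (127296260 to 127335138, plus). Capitals mark the letters GGNNNTTCC on either strand, a pattern of NF-kappaB sites that was chosen after the sequences had been read.
Icam1: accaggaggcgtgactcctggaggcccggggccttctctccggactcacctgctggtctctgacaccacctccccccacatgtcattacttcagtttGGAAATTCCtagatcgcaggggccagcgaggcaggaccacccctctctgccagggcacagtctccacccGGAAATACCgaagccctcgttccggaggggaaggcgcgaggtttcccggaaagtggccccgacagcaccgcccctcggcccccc
Sele: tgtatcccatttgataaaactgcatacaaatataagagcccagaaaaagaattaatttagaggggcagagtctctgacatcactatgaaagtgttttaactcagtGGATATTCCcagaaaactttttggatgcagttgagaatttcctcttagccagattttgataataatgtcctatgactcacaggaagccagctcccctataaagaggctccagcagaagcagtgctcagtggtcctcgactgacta
Selp: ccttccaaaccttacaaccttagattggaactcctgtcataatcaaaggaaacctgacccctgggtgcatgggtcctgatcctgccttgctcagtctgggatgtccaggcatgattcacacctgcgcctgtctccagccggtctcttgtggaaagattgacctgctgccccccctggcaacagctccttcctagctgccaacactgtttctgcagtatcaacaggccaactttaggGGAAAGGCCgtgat

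The matches begin 153 and 84 bases before the start in Icam1, 145 bases before it in Sele and 14 bases before it in Selp. The match 153 bases before the Icam1 start reads on both strands, and those at 84 bases in Icam1 and at 14 bases in Selp read on the minus strand. Of 32851 RefSeq promoter windows of this length, 5144 (15.7%) hold such a match on either strand. The letters describe these windows and do not show that a factor binds there.

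In the CD45- sort, Sele and Selp RNA was held almost wholly by the small venular class. Venular cells were 0.518%, 1.06% and 0.709% of the kept CD45- cells, yet they held 98.2%, 92.0% and 95.2% of the Selp UMIs and 86.3%, 86.2% and 89.3% of the Sele UMIs. Ackr1 was split between venular cells, with 27.5%, 63.3% and 38.1% of its UMIs, and fibroblasts, with 71.0%, 34.7% and 60.5%. Lrg1 was an endothelial gene in all 3 libraries, with 99.1%, 97.5% and 97.1% of its UMIs in endothelium, shared between the venular, lymphatic and other blood classes. Icam1 and Vcam1 were spread differently: endothelium held only 12.6%, 10.1% and 12.7% of the Icam1 UMIs and 1.18%, 20.4% and 15.7% of the Vcam1 UMIs.

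The order of the classes differed from gene to gene. Selp was at 2543 to 4094 CPM in venular cells and at most at 142 CPM in other blood endothelium, 15.2 CPM in lymphatic endothelium and 0.327 CPM in fibroblasts. Lrg1 ran from 1880 to 2942 CPM in venular cells, through 746 to 1404 CPM in lymphatic and 120 to 369 CPM in other blood endothelium, to at most 2.67 CPM in fibroblasts, and these ranges did not overlap. Icam1 was highest in venular cells, at 442 to 1050 CPM, but the ranges of its next classes overlapped: 299 to 543 CPM in other blood endothelium, 131 to 425 CPM in lymphatic endothelium and 221 to 297 CPM in fibroblasts. Icam1 was at 50.2 to 114 CPM in keratinocytes and at 269 to 483 CPM in CD45- cluster 4, which had keratinocyte markers and is described apart below. Vcam1 was low throughout, with 9.28 to 39.8 CPM in venular cells and 23.2 to 48.4 CPM in fibroblasts, ranges that overlapped.

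**Figure D1:**
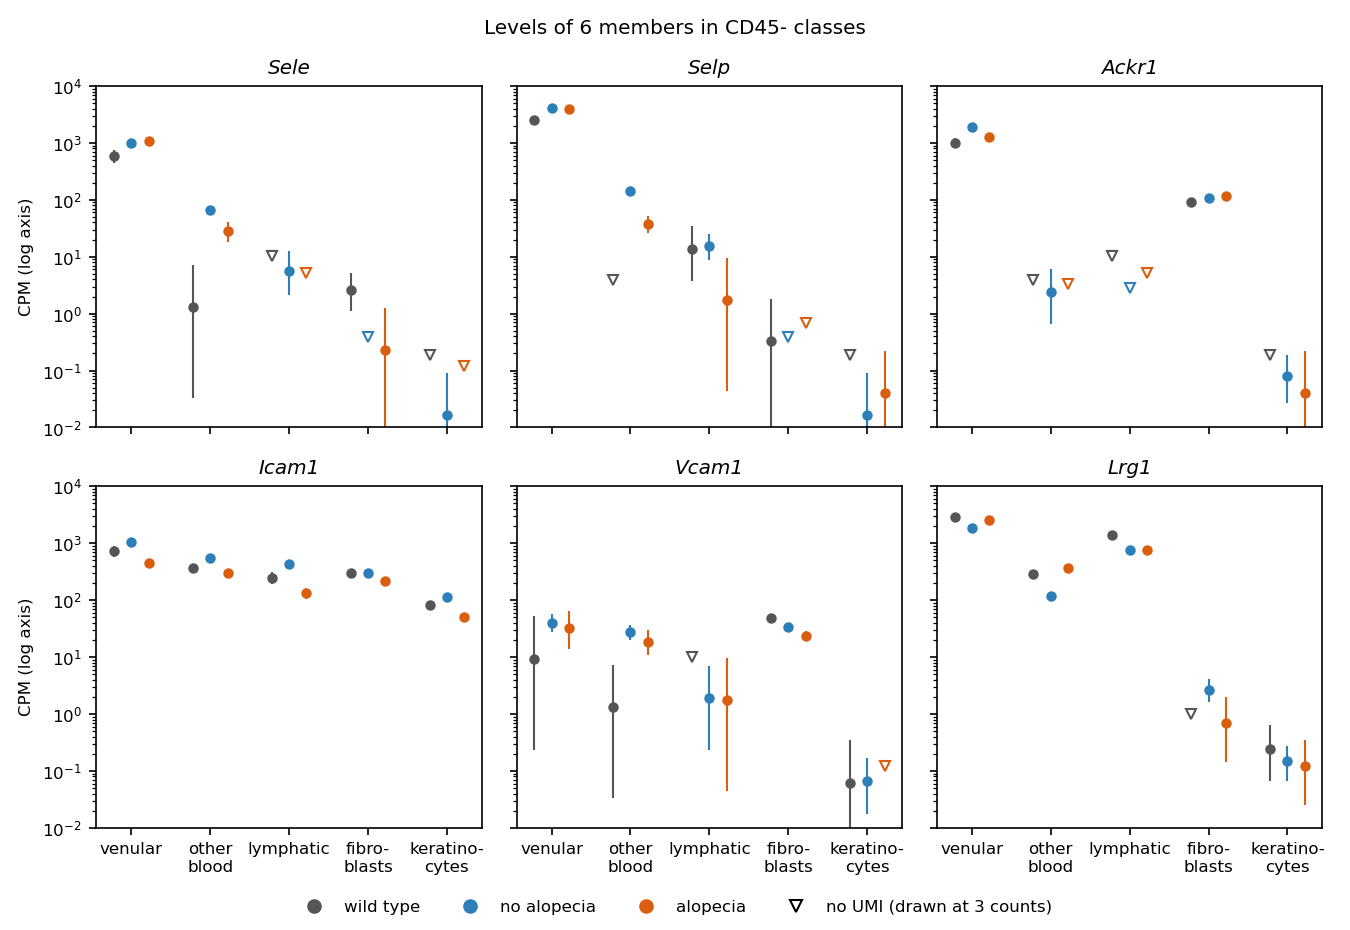
Level of 6 members in 5 classes of the CD45- sort, in CPM on a log axis, with 1 point per library, 95% counting intervals as bars (cut at the lower axis edge) and open triangles at 3 counts where a class held no UMI. Sele and Selp stand far above the other classes in venular cells, Ackr1 in venular cells and fibroblasts, and Icam1 spans all 5 classes. CD45- cluster 4 is not plotted.

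To compare classes at equal depth, each cell was thinned to 1000 UMIs. Selp was then seen in 58.8% (32.9 to 81.6), 77.0% (69.4 to 83.5) and 55.9% (37.9 to 72.8) of venular cells, against 88.2%, 94.1% and 88.2% before thinning. Sele was seen in 47.1% (22.98 to 72.2), 50% (41.7 to 58.3) and 58.8% (40.7 to 75.4), and the intervals of the 3 libraries overlapped for Sele. In other blood endothelium the thinned shares were 0%, 2.63% and 1.31% for Selp and 0%, 1.41% and 1.31% for Sele, and the wild-type counts of 0 allow shares of up to 1.62%. Keratinocytes, which should lack both genes, showed Selp in 0 cells of each library, which allows up to 0.178%, 0.0407% and 0.118%. Sele was in at most 0.0136% of them, so the venular shares lay far above those of keratinocytes. The median depths were 6232, 5240 and 7224 UMIs in venular cells and 6980, 7099 and 7822 UMIs in keratinocytes.

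The 3 venular genes Sele, Selp and Ackr1 were found together. All 3 had a UMI in 11 of 17, 94 of 152 and 23 of 34 venular cells, and in 0 of 198, 2 of 526 and 0 of 252 other blood endothelial cells. None of the trio was seen in 197, 497 and 247 of those other cells. A count of 0 among 198 or 252 cells allows a share of cells with UMIs of all 3 of up to 1.52% or 1.19%.

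The venular class was made of a pair of clusters that differed in Selp. Endothelial cluster 11 held 4, 52 and 12 cells with Selp at 6043, 7532 and 7775 CPM, and endothelial cluster 5 held 13, 100 and 22 cells with Selp at 1355, 1956 and 1209 CPM. The 2 ranges did not overlap. Icam1 was also higher in cluster 11 in each library, at 952, 1534 and 615 CPM against 647, 750 and 318 CPM. Ackr1 was at 1099, 2698 and 2076 CPM in cluster 11 and at 982, 1381 and 691 CPM in cluster 5. Sele and Lrg1 kept no common order, with Sele at 439, 1258 and 1163 CPM in cluster 11 and at 634, 857 and 1001 CPM in cluster 5. Both clusters came from these same cells, so their differences are a description. Cluster 11 made up 23.5%, 34.2% and 35.3% of the venular cells.

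By levels summed over the class, Sele and Selp, the selectin genes, were both lower in the wild-type venular cells than in those of either deletion library. Selp had 274, 3293 and 984 UMIs in venular cells, which gave 2543 (2251 to 2863), 4094 (3955 to 4236) and 3954 (3711 to 4209) CPM. The wild-type interval lay below the other 2, which overlapped. The log2 ratio of Selp was 0.69 (0.51 to 0.87) for no alopecia against wild type, 0.64 (0.44 to 0.84) for alopecia against wild type and -0.05 (-0.15 to 0.05) for alopecia against no alopecia. Per cell the picture was less even, with medians of 13.5, 22.2 and 12.6 Selp UMIs per 10000 UMIs of a cell and highest cells at 84.4, 182 and 205. The median of the alopecia cells was thus below that of the wild-type cells, while their upper quartile, 58.8 per 10000, was above the wild-type one of 28.2. By cluster, Selp with alopecia was below the wild type in cluster 5 (1209 against 1355 CPM) and above it in cluster 11 (7775 against 6043 CPM). How far the shares of these clusters set the class level of Selp was not tested. Sele had 63, 813 and 266 UMIs, or 585 (449 to 748), 1011 (942 to 1083) and 1069 (944 to 1205) CPM. Against wild type, its log2 ratio was 0.79 (0.42 to 1.18) without and 0.87 (0.47 to 1.29) with alopecia, and its ratio between the 2 deletion libraries was 0.08 (-0.12 to 0.28).

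Ackr1, the chemokine carrier of venules, was highest without alopecia. It had 109, 1517 and 316 UMIs in venular cells, or 1012 (831 to 1221), 1886 (1792 to 1983) and 1270 (1134 to 1418) CPM. The log2 ratio was 0.90 (0.62 to 1.19) for no alopecia against wild type, and the alopecia library lay between the other 2, with -0.57 (-0.75 to -0.39) against no alopecia and 0.33 (0.01 to 0.66) against wild type, both short of 1.5-fold.

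Among the ligands of firm adhesion, Icam1 had its lowest level in the venular cells with alopecia. It had 78, 845 and 110 UMIs, or 724 (572 to 904), 1050 (981 to 1124) and 442 (363 to 533) CPM. Its log2 ratio was -1.25 (-1.55 to -0.96) for alopecia against no alopecia, -0.71 (-1.14 to -0.27) for alopecia against wild type and 0.54 (0.20 to 0.89) for no alopecia against wild type. A single cell held 28 of the 78 wild-type Icam1 UMIs, or 35.9%. Vcam1 had 1, 32 and 8 UMIs in 1, 16 and 3 cells, which gave 9.28, 39.8 and 32.1 CPM. The ratio of Vcam1 between no alopecia and wild type was 4.29-fold, with a log2 interval of -0.48 to 7.45 that includes no difference.

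Lrg1 ran the other way from the selectins in the library without alopecia. Its 317, 1512 and 632 UMIs gave 2942 (2627 to 3285), 1880 (1786 to 1977) and 2540 (2345 to 2746) CPM, lowest without alopecia. The log2 ratio of Lrg1 was -0.65 (-0.82 to -0.47) for no alopecia against wild type, -0.21 (-0.41 to -0.01) for alopecia against wild type and 0.43 (0.30 to 0.57) for alopecia against no alopecia. The call against wild type ended with trimmed-mean scaling, at -0.57, and when cells were classed by their own marker UMIs, at -0.19.

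In venular cells, 5 of 6 members compared were past 1.5-fold for no alopecia against wild type (Sele, Selp, Ackr1 and Vcam1 higher, Lrg1 lower), where 38% of all genes compared were. For alopecia against wild type it was 3 of 5 (Sele and Selp higher, Icam1 lower) beside 33.1% of all genes, and for alopecia against no alopecia 1 of 6 (Icam1 lower) beside 29.4%. The wild-type class held 107734 UMIs in all, and the shares over all genes are read against that depth. The alopecia call of Selp against wild type ended without the cell filter, without doublet removal and with a mean over cells, with values down to 0.48, and that of Icam1 ended with classes from marker UMIs, at -0.32. The levels also moved with the processing, in part beyond their counting intervals. Over the alternatives Selp ran from 789 to 3063 CPM in the wild type, from 2162 to 4918 CPM without and from 2079 to 4678 CPM with alopecia. Sele in the wild type ran from 184 to 704 CPM and Ackr1 there from 314 to 1219 CPM.

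**Figure D2:**
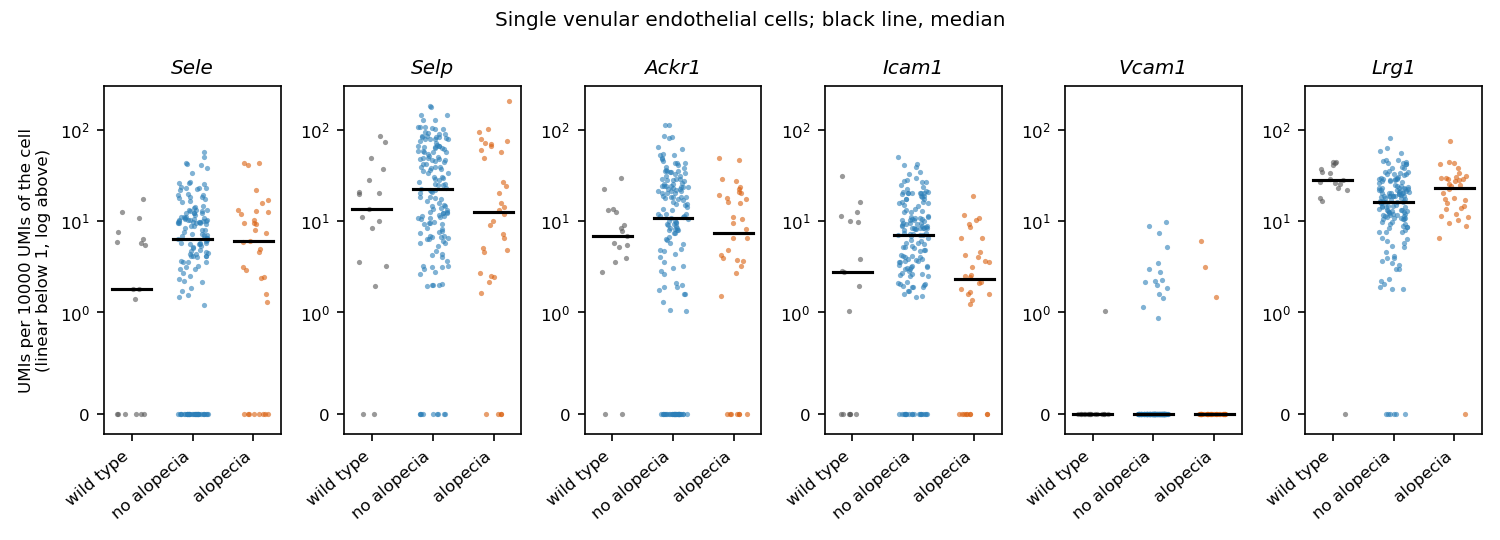
UMIs of each member per 10000 UMIs of the cell in the 17, 152 and 34 single venular cells, on an axis that is linear below 1 and logarithmic above, with 1 point per cell and the median as a black line. The Icam1 medians are 2.78, 7.1 and 2.30 and the Lrg1 medians 28.0, 16.3 and 23.1, and Vcam1 is at 0 in most cells.

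In other blood endothelium, Sele and Selp were rare and came from few cells. Selp had 0, 239 and 35 UMIs in 0, 19 and 4 cells, or 0, 142 and 38.1 CPM. With the wild-type 0 set at 3 counts, Selp was 36.3-fold higher without and 9.72-fold higher with alopecia. The lower limits of these log2 ratios were 4.87 and 2.91. One cell held 29 of the 35 UMIs of the alopecia library, 82.9% of them. Sele had 1, 110 and 26 UMIs in 1, 25 and 3 cells, or 1.31, 65.6 and 28.3 CPM, that is a log2 ratio of 5.65 (3.14 to 10.96) without and 4.44 (1.83 to 9.79) with alopecia, each against wild type. Both genes were also lower with than without alopecia, with log2 ratios of -1.90 (-2.46 to -1.39) for Selp and -1.21 (-1.89 to -0.58) for Sele. The ratio of Sele between the deletion libraries fell short of 1.5-fold, at -0.42, when the 8 members were among the variable genes.

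The shares of the clusters in other blood endothelium differed between the libraries. Endothelial clusters 7 and 9 were 31.8%, 48.3% and 15.5% of the class, and they held 91.8% and all of the Sele UMIs and 90.4% and all of the Selp UMIs of the libraries without and with alopecia. Endothelial cluster 1, which scored highest for red-cell and then capillary markers, was 27.3%, 7.60% and 41.7% of the class. The venular marker list in cluster 7 was at 3100, 3870 and 4998 CPM, and in cluster 1 at 3674, 4324 and 4331 CPM. How far these shares set the class levels of Sele and Selp was not tested.

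Icam1 in other blood endothelium had 286, 911 and 275 UMIs, or 374 (332 to 420), 543 (508 to 579) and 299 (265 to 337) CPM, the same order as in venular cells. The log2 ratio was -0.86 (-1.06 to -0.66) for alopecia against no alopecia and fell short of the threshold, at -0.51, without clusters 7 and 9. By cluster, Icam1 was at 362, 601 and 378 CPM in cluster 7 and at 1055, 791 and 784 CPM in cluster 9. It was at 430, 917 and 1364 CPM in cluster 10, which scored highest for arterial markers, so the clusters did not share 1 order. Vcam1 had 1, 46 and 17 UMIs, and cluster 10 held 38 of the 46 and 15 of the 17, at 156 CPM in each deletion library and with 0 UMIs in the wild type. Its log2 ratio for no alopecia against wild type was 4.39 (1.84 to 9.72).

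Lrg1 in other blood endothelium was lowest without alopecia, as in venular cells. It had 217, 201 and 339 UMIs, or 284 (247 to 324), 120 (104 to 138) and 369 (331 to 411) CPM. The log2 ratio was -1.24 (-1.53 to -0.96) for no alopecia against wild type, 1.62 (1.37 to 1.88) for alopecia against no alopecia and 0.38 (0.13 to 0.63) for alopecia against wild type. Its level was lower without alopecia than with it in clusters 1, 3, 7, 8 and 10 (246 against 618 CPM in cluster 1, 149 against 465 CPM in cluster 7), but not in cluster 9 (124 against 94.1 CPM). Red-cell genes summed to 7237, 12.5 and 3144 CPM in this class, and their part in the Lrg1 values was not tested.

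In other blood endothelium 4 of 5 members compared were past 1.5-fold for no alopecia against wild type (23.3% of all genes were), 2 of 4 for alopecia against wild type (21.5%) and 4 of 5 for alopecia against no alopecia (30.9%). Ackr1 was not compared there, with 0, 4 and 0 UMIs.

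Lymphatic endothelium, which drains leukocytes from tissue, carried Lrg1 and Icam1 and almost none of the other members. Lrg1 had 414, 806 and 432 UMIs, or 1404 (1272 to 1546), 764 (712 to 818) and 746 (677 to 820) CPM. It was thus higher in the wild type than in both deletion libraries, with log2 ratios of -0.88 (-1.05 to -0.70) and -0.91 (-1.11 to -0.72). Icam1 had 73, 449 and 76 UMIs, or 248 (194 to 311), 425 (387 to 467) and 131 (103 to 164) CPM. Its log2 ratio was -1.70 (-2.07 to -1.34) for alopecia against no alopecia, 0.78 (0.42 to 1.16) for no alopecia against wild type and -0.92 (-1.40 to -0.43) for alopecia against wild type. That last ratio turned to 0.45 when more doublets were removed, 0.8% per 1000 barcodes in place of 0.4%, and the middle one fell just short of the threshold, at 0.58, with classes from marker UMIs. The lymphatic class was made of 4 clusters whose shares differed between the libraries: endothelial cluster 4 held 13, 129 and 31 of its 72, 343 and 135 cells. Icam1 was at 602, 761 and 238 CPM in cluster 4, at 83.5, 239 and 75.4 CPM in cluster 2 and at 356, 246 and 267 CPM in cluster 6, where it was highest in the wild type, and it had 0, 3 and 1 UMIs in cluster 0. Lrg1 was highest in the wild type in clusters 0 (2559, 792 and 836 CPM), 2 (585, 432 and 516 CPM) and 4 (2593, 1064 and 767 CPM), but highest with alopecia in cluster 6, at 1161, 576 and 1502 CPM. How far the cluster shares set the class levels was not tested. Selp had 4, 16 and 1 UMIs in 1, 2 and 1 cells, Sele had 6 UMIs in 1 cell of the library without alopecia, and Ackr1 had none. For no alopecia against wild type 2 of 3 members compared were past 1.5-fold (28.7% of all genes), for alopecia against wild type 2 of 2 (23.3%) and for alopecia against no alopecia 1 of 2 (24%).

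Fibroblasts, the collagen-making cells of the dermis, expressed Icam1, Ackr1 and Vcam1. Ackr1 was spread over many of them, with 281, 831 and 502 UMIs in 196, 633 and 340 of 694, 2319 and 1057 cells and no more than 7 UMIs in a cell. Its level of 91.8 (81.4 to 103), 106 (98.8 to 113) and 115 (105 to 126) CPM differed by less than 1.5-fold in every comparison. At equal depth, Ackr1 was in 9.10%, 9.58% and 11.1% of thinned fibroblasts and in at most 0.0136% of thinned keratinocytes. The part of free RNA in these shares was not tested. Icam1 in fibroblasts was at 297 (278 to 317), 296 (284 to 309) and 221 (207 to 235) CPM, from 910, 2326 and 963 UMIs, a log2 ratio of -0.42 (-0.53 to -0.31) between the deletion libraries.

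Vcam1 in fibroblasts had 148, 265 and 101 UMIs in 47, 142 and 54 cells, or 48.4 (40.9 to 56.8), 33.8 (29.8 to 38.1) and 23.2 (18.9 to 28.1) CPM. It was lowest with alopecia, at a log2 ratio of -1.06 (-1.44 to -0.69) to wild type. This ratio was -0.09 when the members were among the variable genes, and it also ended with a mean over cells. Fibroblasts caught in the CD45+ sort, 101, 255 and 181 cells of other libraries of the same groups, had Vcam1 at 135, 107 and 48.7 CPM, with a log2 ratio of -1.47 (-2.13 to -0.83) for alopecia against wild type. In the CD45- sort, the level of Vcam1 was 86.9, 28.6 and 11.6 CPM in CD45- cluster 0 and 77.4, 69.9 and 41.1 CPM in cluster 1, and both were lowest with alopecia, while the Pi16-led cluster 2 was at 6.36, 11.2 and 11.5 CPM. Lrg1 had 0, 21 and 3 UMIs in 0, 5 and 3 fibroblasts. With the wild-type 0 set at 3 counts, Lrg1 was 2.73-fold higher without alopecia than in the wild type (lower log2 limit 1.02). It was 3.89-fold lower with than without alopecia (log2 -1.96, -4.35 to -0.22). For no alopecia against wild type 1 of 4 endothelial members was past 1.5-fold (Lrg1, 19.4% of all genes). For alopecia against wild type it was 1 of 3 (Vcam1, 14.5%) and for alopecia against no alopecia 1 of 4 (Lrg1, 14.4%). Selplg, outside these counts, had 4, 21 and 2 UMIs in fibroblasts. It was 2.05-fold higher without alopecia than in the wild type, with a log2 interval of -0.53 to 3.04 that includes no difference. With alopecia it was 5.83-fold lower than without (log2 -2.54, -5.68 to -0.51). The part of free RNA in these counts was not tested.

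In keratinocytes, the epithelial cells of epidermis and hair follicle, Icam1 was the one member above background. It had 1333, 6998 and 1259 UMIs, or 82.0 (77.7 to 86.5), 114 (112 to 117) and 50.2 (47.5 to 53.1) CPM, and the other 5 endothelial members had 0 to 9 UMIs in a library. The log2 ratio of Icam1 was -1.19 (-1.27 to -1.10) for alopecia against no alopecia, -0.71 (-0.82 to -0.60) for alopecia against wild type and 0.48 (0.39 to 0.56) for no alopecia against wild type. Without CD45- cluster 8, the ratio of alopecia to wild type was -0.58, short of the threshold. Selplg, which is outside the counts of endothelial members, had 6, 15 and 9 UMIs here. It was 1.51-fold lower without alopecia than in the wild type, with a log2 interval of -2.04 to 1.06 that includes no difference. Icam1 was the only endothelial member compared. It was past 1.5-fold for alopecia against no alopecia (28.1% of all genes were) and for alopecia against wild type (10.5%), and not past it for no alopecia against wild type (29.8%). The offset of trimmed-mean scaling, which is subtracted from each log2 ratio, was 0.18 for alopecia against no alopecia and -0.22 for no alopecia against wild type. With it the Icam1 ratios were -1.37 and 0.70, and the latter is past 1.5-fold.

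CD45- cluster 4, of 69, 1618 and 151 cells, scored highest for basal keratinocyte markers, at 3.255 with the next list at 0.3923. It had none of them among its top 10 genes, which Ptgs2 and Ch25h lead, and was kept apart from the keratinocytes. CD45- clusters 6 and 9 also had no keratinocyte marker among their top 10 genes but were kept as keratinocytes, so the separation followed no rule applied to every cluster. Cluster 4 held 12.5%, 37.6% and 15.1% of all Icam1 UMIs of the CD45- sort. Icam1 had 432, 8195 and 548 UMIs there, or 483 (439 to 531), 410 (401 to 419) and 269 (247 to 293) CPM, again lowest with alopecia but highest in the wild type. The log2 ratio was -0.60 (-0.73 to -0.48) for alopecia against no alopecia, -0.84 (-1.03 to -0.66) for alopecia against wild type and -0.24 (-0.38 to -0.10) for no alopecia against wild type. With this cluster joined to the keratinocytes, an alternative added after seeing the data, Icam1 was at 103, 187 and 66.7 CPM, and its ratios were -1.49, -0.63 and 0.86 in the same order of comparisons, all past 1.5-fold.

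By keratinocyte class, Icam1 was lowest with alopecia in 5 of the 6 named classes: 97.4, 95.1 and 46.7 CPM in basal cells, 131, 140 and 53.2 CPM in bulge and outer root sheath, 105, 159 and 88.7 CPM in hair shaft and inner root sheath, 44.5, 104 and 25.4 CPM in suprabasal cells and 69.5, 119 and 30.04 CPM in the upper follicle. Sebaceous cells were lowest in the wild type, at 6.2, 86.2 and 28.7 CPM.

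Icam1 was the member whose pattern recurred across cell types. A list of 20 genes of dissociation stress, among them Fos, Jun, Egr1 and Hspa1a, moved with it. The libraries had the same order by Icam1 and by the summed stress list in 6 of 6 classes, the alopecia library being lowest in each. The sixth class is CD45- cluster 4. The list summed to 20170, 25257 and 19220 CPM in venular cells, 21143, 25587 and 13832 CPM in other blood endothelium, 21727, 30281 and 16130 CPM in lymphatic endothelium and 14583, 22435 and 11475 CPM in keratinocytes. In fibroblasts it was 17686, 16096 and 13201 CPM, and in CD45- cluster 4 it was 36666, 27719 and 22802 CPM. Within the clusters of other blood endothelium the orders could differ: in cluster 10 the list was at 44687, 41019 and 34513 CPM, opposite to Icam1 there, and in cluster 9 it was highest without alopecia (18854, 23218 and 17960 CPM) while Icam1 was highest in the wild type. The part of handling stress in the Icam1 differences was not tested.

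**Figure D3:**
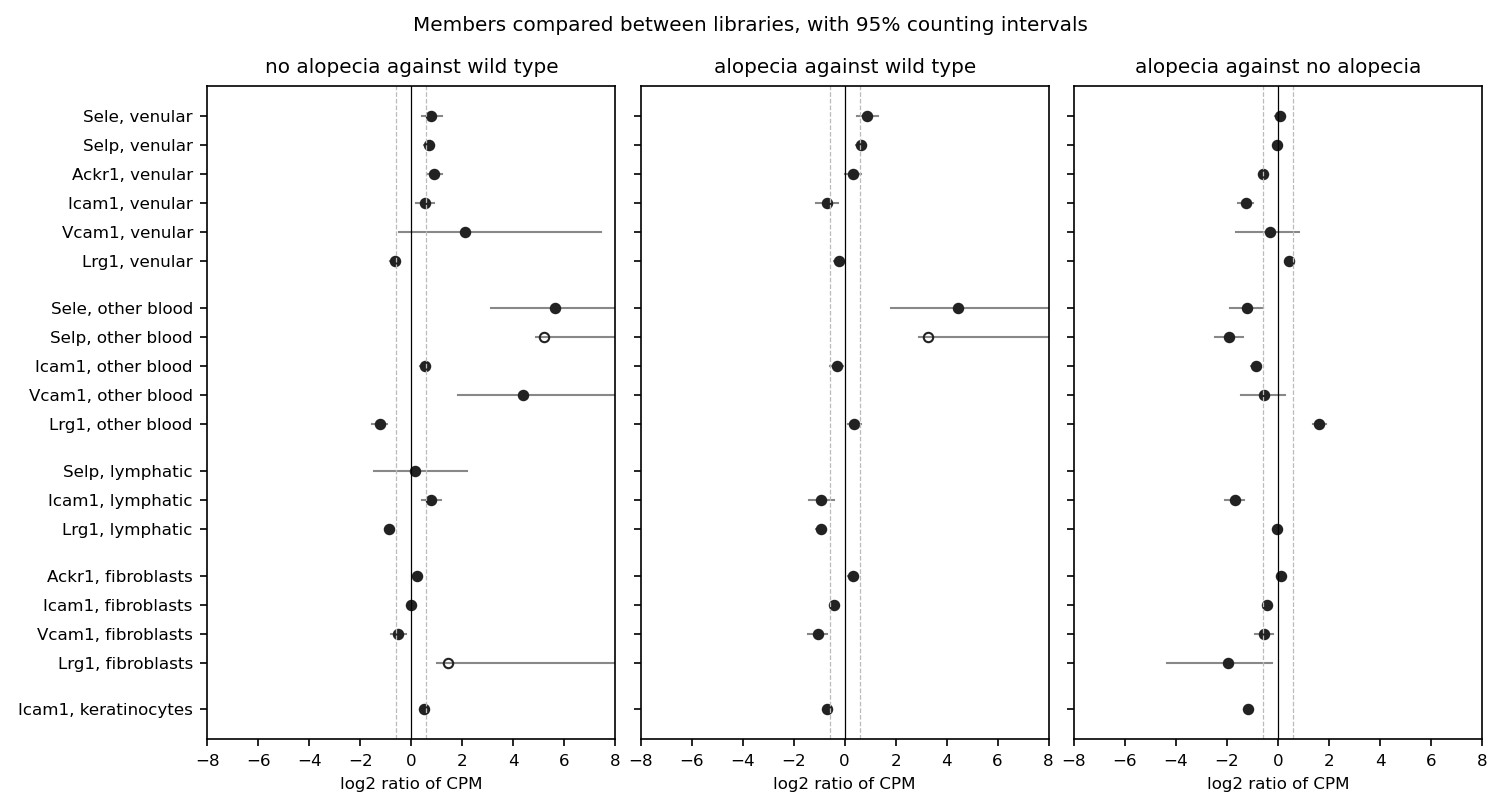
Log2 ratio of CPM for each member and class compared, with 1 panel per comparison, 95% counting intervals as bars (cut at the axis edge), broken lines at 1.5-fold and open circles where 1 library held no UMI and the point is a lower bound. Icam1 lies left of 0 in all 5 classes for alopecia against no alopecia, and Sele and Selp in venular cells lie right of 0 in both comparisons with wild type.

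**Figure D4:**
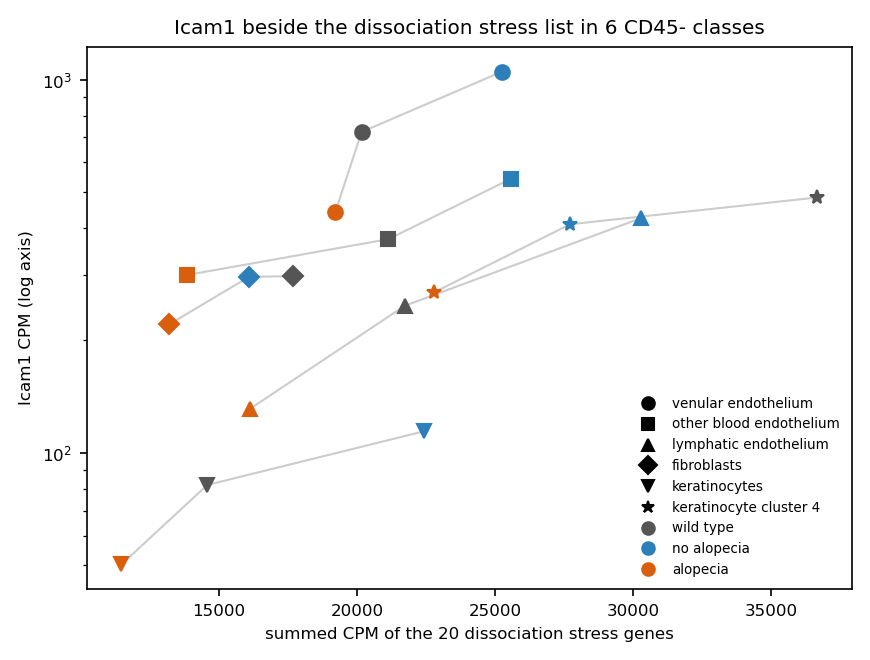
Level of Icam1 (CPM, log axis) against the summed level of 20 dissociation stress genes (CPM) in 6 CD45- classes, with 1 point per library and a line joining the 3 libraries of a class. In every class the alopecia library is lowest on both axes.

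Genes upstream and beside the members were counted from lists. Of 21 genes that sense or relay inflammatory signals or shear stress, none of which is on the stress list, 9 of 21 were lower and 0 higher past 1.5-fold for alopecia against no alopecia in other blood endothelium, with a median log2 ratio of -0.53 against 0.08 over all genes, of which 12.6% were lower and 18.3% higher. In lymphatic endothelium it was 10 lower and 0 higher of 19 (median -0.62 against -0.03), where 12.3% of all genes were lower and 11.7% higher. In keratinocytes it was 11 lower and 1 higher of 20 (median -0.70 against 0.14), where 8.39% of all genes were lower and 19.7% higher. Venular cells showed 2 lower and 3 higher of 20, with a median of -0.01 against -0.02 and with 15.7% of all genes lower and 13.7% higher. Fibroblasts showed 1 lower and 1 higher of 20, beside 6.45% and 7.99% of all genes. The summed stress list was also lower with than without alopecia in each of these classes, and the part of handling stress in these counts was not tested. Nfkbia, the NF-kappaB inhibitor that NF-kappaB itself induces, was at 3100, 4906 and 2110 CPM in other blood endothelium, a log2 ratio of -1.22 (-1.29 to -1.15) between the deletion libraries, and at 3583, 5330 and 4187 CPM in venular cells, a ratio of -0.35. Irf1, an interferon-response factor, was at 417, 389 and 161 CPM in lymphatic endothelium and at 787, 816 and 422 CPM in other blood endothelium. Tnfaip3, a brake on NF-kappaB, was at 115, 256 and 78.8 CPM in keratinocytes.

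For no alopecia against wild type the same list had 6 higher and 0 lower of 21 in other blood endothelium, where 11.1% of all genes were higher and 12.2% lower. It had 11 higher and 0 lower of 20 in keratinocytes (8.89% and 20.9% of all genes) and 5 higher and 2 lower of 20 in venular cells (25.1% and 12.9%). In CD45- cluster 4 it had 0 higher and 2 lower of 19 (11.8% and 14.5%). Of 28 junction, glycocalyx and chemokine genes of the vessel wall, 1 was higher and 3 lower of 22 compared in venular cells for alopecia against no alopecia, and 2 higher and 1 lower of 24 in other blood endothelium. Pecam1, a junction molecule of leukocyte passage, was at 1522, 1774 and 1732 CPM in venular cells. Thy1, an adhesion ligand, was at 408, 595 and 261 CPM there, a log2 ratio of -1.19 between the deletion libraries, and Thbd, the anticoagulant thrombomodulin, was at 186, 228 and 362 CPM.

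On the leukocyte side, Selplg and Itgal were found in every lymphoid class, and Selplg also in the myeloid classes. Itgal in the myeloid classes is described apart below. Selplg was at 745, 800 and 704 CPM in lymphoid cluster 0, 604, 596 and 571 CPM in dermal gamma delta T cells, 549, 490 and 661 CPM in migratory dendritic cells and 399, 425 and 452 CPM in dendritic epidermal T cells. It was lower in regulatory T cells, at 376, 363 and 328 CPM, in Langerhans cells, at 315, 281 and 248 CPM, and in mast cells, at 228, 230 and 209 CPM. Fibroblasts of the same sort, which should lack the gene, had 8.56, 5.18 and 13.7 CPM. Keratinocytes of that sort, which should also lack it, had 47.0, 93.7 and 41.1 CPM. At equal depth Selplg was in 52.2%, 52.1% and 51.9% of lymphoid cluster 0 and in 1.06%, 0.433% and 1.76% of those fibroblasts.

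Itgal was at 279, 243 and 302 CPM in dermal gamma delta T cells, 292, 215 and 253 CPM in innate lymphoid cells and 246, 235 and 291 CPM in lymphoid cluster 1. It was at 194, 181 and 207 CPM in dendritic epidermal T cells and 143, 131 and 168 CPM in regulatory T cells. The ranges of the first 3 classes overlapped, whereas that of dendritic epidermal T cells lay below them and above that of regulatory T cells. NK cells, with 365, 277 and 452 CPM, rested on 13, 10 and 60 cells. Keratinocytes of the same sort, which should lack Itgal, had 24.3, 34.0 and 17.5 CPM.

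Itgal in the myeloid classes was found in part together with RNA of T cells. A UMI of the T-cell receptor complex was in 87.3%, 84.5% and 77.1% of macrophages and in 75%, 67.7% and 64.6% of Langerhans cells. In the same sort it was in 11.9%, 3.92% and 8.29% of fibroblasts and in 50%, 58.7% and 40.4% of keratinocytes. In the cells without such a UMI, Itgal was at 20.6, 11.6 and 26.4 CPM in macrophages in place of 148, 133 and 128 CPM, and at 2.94, 4.19 and 4.19 CPM in Langerhans cells in place of 116, 87.1 and 88.5 CPM. These levels rested on 2, 1 and 14 UMIs in 48, 38 and 199 macrophages and on 1, 1 and 3 UMIs in 60, 41 and 123 Langerhans cells. Macrophages without such a UMI were shallower, with median depths of 1609, 2150.5 and 2298 UMIs against 5459, 5577 and 4356 UMIs over the class. Monocyte-like cells kept 111, 100.4 and 92.0 CPM of Itgal in place of 131, 105 and 115 CPM, from 53, 34 and 157 UMIs. Type 1 dendritic cells kept 64.3, 67.3 and 65.7 CPM in place of 123, 118 and 105 CPM, from 19, 10 and 29 UMIs. In the cells without such a UMI, Selplg stayed at 628, 524 and 686 CPM in migratory dendritic cells. In type 2 dendritic cells it stayed at 470, 311 and 309 CPM. It was lower in macrophages without those UMIs, at 196, 268 and 173 in place of 385, 364 and 305 CPM. Langerhans cells had 123, 193 and 161 in place of 315, 281 and 248 CPM. Mast cells had 131, 200 and 136 in place of 228, 230 and 209 CPM, and monocyte-like cells 202, 213 and 222 in place of 269, 297 and 244 CPM.

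Few classes differed between groups in either gene. Selplg was past 1.5-fold in 0 of 11, 0 of 11 and 0 of 13 classes for alopecia against no alopecia, no alopecia against wild type and alopecia against wild type, with median log2 ratios of -0.06, -0.05 and -0.14. Itgal was past it in 1 of 11, 0 of 11 and 1 of 13 classes, beside 20%, 19% and 17.4% of gene-by-class pairs over all genes. The single class was mast cells, where Itgal had 64, 30 and 34 UMIs, or 146 (112 to 186), 117 (78.8 to 167) and 71.6 (49.6 to 100) CPM, with the alopecia library at -1.03 (-1.67 to -0.41) on the log2 scale against wild type and -0.71 (-1.46 to 0.05) against no alopecia. Among mast cells, 62.4%, 65.5% and 47.1% held a T-cell receptor UMI, which followed the same direction, and without those cells 8, 4 and 4 Itgal UMIs remained, too few to compare.

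**Figure D5:**
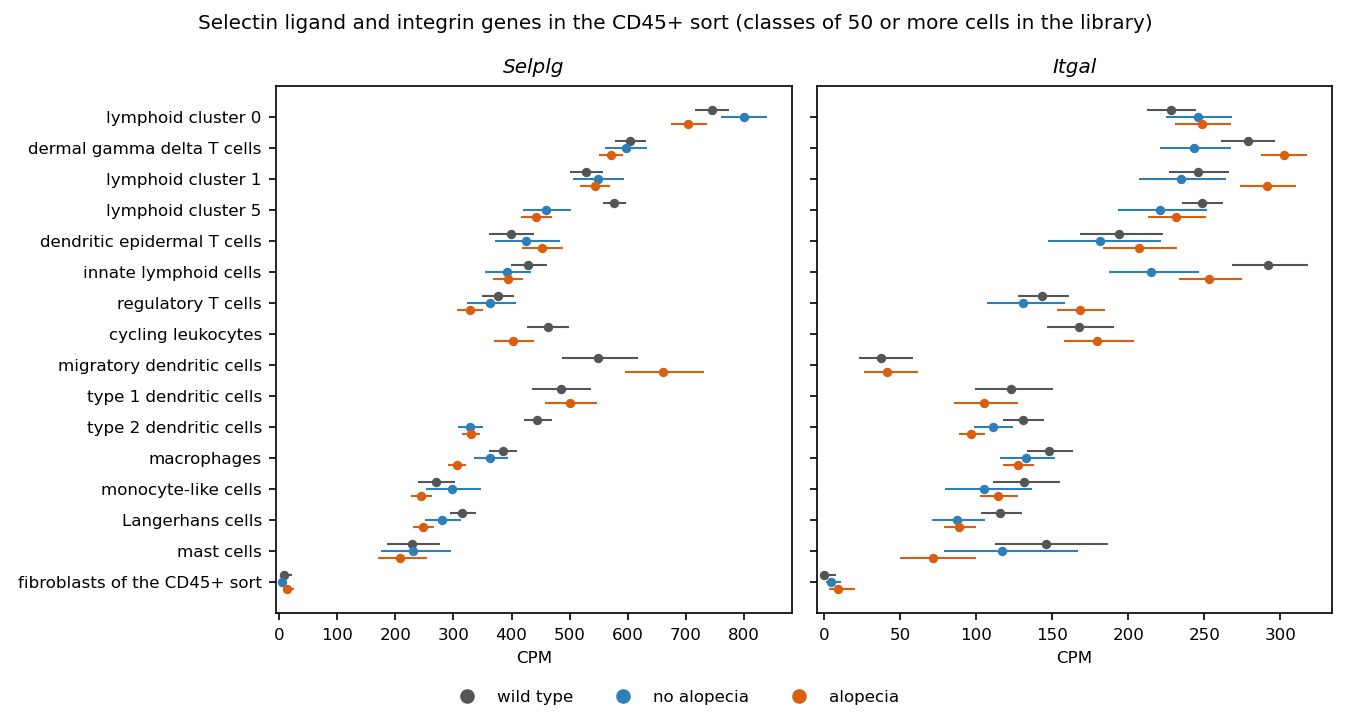
Level of Selplg and Itgal in CPM by class of the CD45+ sort, with 1 point per library of 50 or more cells and 95% counting intervals as bars. Selplg is past 1.5-fold between libraries in none of the classes compared, Itgal in mast cells runs from 71.6 to 146 CPM, and the fibroblasts of the sort lie near 0 for Selplg.

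The partners of these genes were counted in the same way. The list of 29 leukocyte genes (integrin chains, their activators and the enzymes that build selectin ligands) had at most 3 higher and 4 lower in a class and comparison. Over all genes, 5.48% to 16.4% were higher and 4.97% to 15.2% lower in those classes and comparisons. Itgb2, the beta chain that pairs with the Itgal product, was at 73.0, 93.4 and 46.4 CPM in mast cells, a log2 ratio of -1.01 for alopecia against no alopecia.

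Endothelial cells caught in the CD45+ sort, 26, 7 and 66 cells, gave a side value from other libraries. Selp was at 561, 3406 and 707 CPM there, Sele at 45.6, 1390 and 203 CPM and Icam1 at 469, 1216 and 272 CPM, while Ackr1 was at 261, 243 and 243 CPM and Lrg1 at 1128, 765 and 950 CPM. Icam1 was again lowest with alopecia, with a log2 ratio of -0.79 (-1.24 to -0.33) to wild type, and Sele was higher with alopecia than in the wild type, at 2.16 (1.04 to 3.52). These cells were not split by vessel type.

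By the likeness of level across 26 sums of a CD45- class in a library (Pearson r of log2(CPM + 1), points that share libraries and depth), Sele and Selp were nearest to each other, at 0.94. Sele was next nearest to Cytl1 (0.91) and Syt15 (0.85), and Selp to Csf3 (0.88) and Cytl1 (0.84). Lrg1 lay nearest to Gimap4, Tal1 and Tie1, each at 0.98, and Icam1 to Ripk3 (0.90), Ets2 (0.88) and Plaur (0.84). Ackr1 lay nearest to Cadm3 (0.88), Emilin2 (0.80) and Calml4 (0.77), and Vcam1 to Emp3 (0.84), Tmem47 and Mxra7 (both 0.83). Across 50 sums of the CD45+ sort, Selplg lay nearest to Laptm5 (0.97), Cd52 and Arhgap30 (both 0.96) and Itgal to Spn (0.96), Cyfip2 and Lcp1 (both 0.95). With a pseudocount of 10, Sele and Selp stayed nearest to each other at 0.99. The nearest gene became Ets2 for Icam1, Hfe for Vcam1, Nt5e for Ackr1 and Cd52 for Selplg.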

How the data were processed

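The deposited files hold raw UMI counts per gene and cell barcode, made by the authors with Cell Ranger 7.1.0 and build mm10, per the submitters' processing notes. The 8 members, the gene lists and the threshold were chosen with earlier results of these data known. Genes were named as members, as examples from the lists, or as the 3 genes most like a member. Of 32285 gene ids, 32158 were found in GENCODE vM21. Barcodes below 500 UMIs or 300 genes, or above 10% mitochondrial UMIs, were dropped, and the barcodes with the highest Scrublet score were removed as doublets at 0.4% per 1000 barcodes (69, 1093 and 161 CD45- and 180, 42 and 360 CD45+ barcodes in the order wild type, no alopecia, alopecia). Clustering used 2000 variable genes, 30 principal components, 15 neighbours and Leiden resolution 1 (Python 3.11.15, scanpy 1.11.5, igraph 0.11.9, numpy 2.4.6, scipy 1.17.1). Endothelium was clustered again by itself, and 19 endothelial cells with keratinocyte RNA were left out of its classes. Leukocyte classes were compared where both libraries held at least 100 cells. Intervals are exact 95% Poisson, Clopper-Pearson or conditional binomial intervals. One marker name, Cd301b, matched no gene. The total depth was 25735064, 116334373 and 41014981 UMIs in the CD45- and 38407339, 20116378 and 50057357 UMIs in the CD45+ libraries. Promoters come from RefSeq.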

Additional observations from a re-analysis of the deposited data

How the results depend on the processing

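Counts of members past the threshold moved as follows, and the cause was not tested. In venular cells, alopecia against no alopecia gave 2 in place of 1 without the cell filter, without doublet removal, with 0.8% doublets, with classes from marker UMIs, with trimmed-mean scaling and with scaling that left out mitochondrial and ribosomal-protein genes. With a fold of 2, fewer were past it by construction: venular 1 in place of 5 (no alopecia against wild type) and 0 in place of 3 (alopecia against wild type), lymphatic 0 in place of 2 in both, keratinocytes 0 in place of 1 (alopecia against wild type) and leukocyte classes 0 in place of 1 (alopecia against no alopecia). In other blood endothelium, alopecia against wild type gave 2, and 1 with the members among the variable genes, 1 with another clustering seed, 1 without clusters 7 and 9 (chosen after seeing the data), 0 with marker UMIs and 0 with at least 50 UMIs. In lymphatic cells, no alopecia against wild type gave 1 in place of 2 with marker UMIs, and alopecia against wild type 1 in place of 2 with 0.8% doublets, where the Icam1 log2 ratio turned from -0.92 to 0.45. In fibroblasts, alopecia against no alopecia (1) became 0 with 0.8% doublets, 2 with the members and 0 with at least 50 UMIs. There, no alopecia against wild type (1) became 2 without the cell filter, without doublet removal and with the members, and 0 with 0.8% doublets and at least 50 UMIs, and alopecia against wild type (1) became 0 with the members and with a mean over cells. In keratinocytes, alopecia against no alopecia (1) became 2 without doublet removal, no alopecia against wild type (0) became 1 without the cell filter, with trimmed-mean scaling and with a mean over cells, and alopecia against wild type (1) became 0 without CD45- cluster 8, an alternative added after seeing the data. With CD45- cluster 4 joined, also added then, they became 2, 1 and 1 (alopecia against no alopecia, no alopecia against wild type, alopecia against wild type), Lrg1 being the second member. In leukocyte classes, no alopecia against wild type (0) became 2 with a mean over cells and 1 without myeloid cells holding T-cell receptor UMIs (added after seeing the data), where alopecia against no alopecia (1) became 0. The venular share was 30.8%, 50.9% and 27.1% by marker UMIs. The mitochondrial limit of 5% and removal of CD45- cells with leukocyte RNA moved none of 21 results. Icam1 in venular cells kept its ratio for alopecia against no alopecia past 1.5-fold under all 11 alternatives (-1.40 to -0.99), as did Sele and Ackr1 for no alopecia against wild type. The offset that trimmed-mean scaling subtracts from the log2 ratios of other blood endothelium was 0.13 for alopecia against no alopecia. No replicate could be left out and no paired analysis was possible because each group and sort has 1 library. Depth limits Vcam1 most, with 1 to 32 venular UMIs.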

Other observations

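Vcam1 was also found in leukocytes, where it belongs to no comparison above. In macrophages it had 194, 18 and 235 UMIs in the wild type, without and with alopecia, or 76.3, 10.8 and 49.4 CPM, and 227 of 1492 macrophages held a UMI. At equal depth it was in 7%, 1.68% and 5.79% of macrophages and in 0.95%, 0% and 0.40% of regulatory T cells. Monocyte-like cells had Vcam1 at 7.41, 1.88 and 27.3 CPM. The low value without alopecia in macrophages was opposite in direction to the venular levels, where Vcam1 was lowest in the wild type. That wild-type venular level rested on 1 UMI, and the venular log2 interval for no alopecia against wild type, -0.48 to 7.45, includes no difference. The difference between these cell types was not tested. Icam1 in type 2 dendritic cells was at 171, 157 and 120 CPM, again lowest with alopecia.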
